A study of Mus musculus with 30 samples.

Results

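Liver glycogen genes were followed through 3 experiments on mice that lost Cebpa, the gene of the transcription factor C/EBPα, in hepatocytes. The set held 9 genes, found by symbol among the 55450 genes of the count table: Gyg, Ugp2, Gys2, Gbe1, Pygl, Phka2, Ppp1r3b, Ppp1r3c and Ppp1r3g. Libraries were made from livers of 30 male mice, 5 in each of 6 groups. Every mouse, controls included, carried floxed Cebpa alleles on a C57BL/6N background and ate a diet high in fat, cholesterol and fructose (HFCFD). In HFCFD2W, Cebpa fl/fl mice were compared with Cebpa ΔHep mice, in which albumin-Cre had removed Cebpa constitutively, after 2 weeks of diet. In HFCFD8W+T10D, Cebpa fl/fl mice were compared with Cebpa ΔHep,ERT2 mice, in which a tamoxifen-inducible Cre under the albumin promoter removed it, after 8 weeks of diet and 10 days of tamoxifen. In HFCFD12W+T10W, the same genotypes were compared after 22 weeks of diet, with tamoxifen in the last 10 weeks. The albumin promoter directs the deletion to hepatocytes, and Cebpa in the other cells of whole liver was not measured separately here. Ages at harvest are not given in the sources used here. HFCFD2W differed from the others in Cre line, diet time and tamoxifen at once. HFCFD8W+T10D differed from HFCFD12W+T10W in diet time and length of tamoxifen. These, and any difference in batch or hour of harvest between experiments, cannot be told apart.

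Glycogen is built on glycogenin, a protein that primes its own glucose chain, from UDP-glucose made by UDP-glucose pyrophosphorylase. Glycogen synthase lengthens the chains and the branching enzyme adds side branches, while glycogen phosphorylase, switched on by phosphorylase kinase, releases glucose 1-phosphate. Targeting subunits of the PPP1R3 family bring protein phosphatase 1 to the particle, where it activates the synthase and inactivates the phosphorylase. The liver draws on this store to hold blood glucose between meals.

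In the mouse genome (mm10, GENCODE M21), all 9 are protein-coding genes. The genes of synthesis lie at chr3:20122084-20155317 (minus strand) for Gyg, chr11:21321138-21371201 (minus strand) for Ugp2, chr6:142422613-142473109 (minus strand) for Gys2 and chr16:70313949-70569716 (plus strand) for Gbe1. The genes of breakdown lie at chr12:70190811-70231488 (minus strand) for Pygl and chrX:160502166-160598878 (plus strand) for Phka2. The targeting subunits lie at chr8:35375739-35388139 (plus strand) for Ppp1r3b, chr19:36731731-36736653 (minus strand) for Ppp1r3c and chr13:35958839-35970388 (plus strand) for Ppp1r3g.

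Promoter sequence is shown for 3 members whose levels moved with genotype, 2 with a C/EBP pattern and 1 with an E-box in the window. RefSeq windows (GRCm38.p6, 250 bases before to 50 after a transcription start) matched 7 of the 9 members, with 8 windows since Ugp2 has 2 starts. The bases below are those outside every GENCODE exon, 5′ to 3′ on the gene's strand, with the motif in capitals. Ugp2 is read from chr11:21371268-21371459 (minus strand), Gbe1 from chr16:70313699-70313948 (plus strand) and Ppp1r3c from chr19:36736654-36736854 (minus strand).
Ugp2: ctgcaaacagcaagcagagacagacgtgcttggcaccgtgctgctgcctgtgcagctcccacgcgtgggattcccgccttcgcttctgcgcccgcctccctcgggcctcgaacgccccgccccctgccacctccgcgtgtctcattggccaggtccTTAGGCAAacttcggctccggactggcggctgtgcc
Gbe1: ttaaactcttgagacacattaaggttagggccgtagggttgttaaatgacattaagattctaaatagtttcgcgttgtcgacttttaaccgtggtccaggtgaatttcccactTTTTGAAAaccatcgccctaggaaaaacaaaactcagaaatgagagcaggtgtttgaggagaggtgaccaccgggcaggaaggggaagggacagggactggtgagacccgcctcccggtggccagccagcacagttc
Ppp1r3c: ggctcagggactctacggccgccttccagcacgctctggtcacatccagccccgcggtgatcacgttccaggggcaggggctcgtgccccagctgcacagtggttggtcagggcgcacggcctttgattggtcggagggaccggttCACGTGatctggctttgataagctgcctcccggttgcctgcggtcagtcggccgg
In Ugp2 and Gbe1 the capitals mark TTNNGNAA, a C/EBP core pattern, whose first letter lay 36 and 137 bases before the start. Searched on both strands, this pattern was in 40.7% of 32851 RefSeq windows of the same length, so a match is common. In Ppp1r3c the capitals mark the E-box CACGTG, 104 bases before the start, which was in 7.15% of all windows. CACGTG was also in the Gyg window, 9 bases after the start, where it overlaps TGACG, the half-site of the cAMP response element. TGACG was in the windows of Ppp1r3g, Pygl and Gyg and in 20.8% of all windows. No member's window held ACANNNTGT, a glucocorticoid receptor pattern, or TGTTTAC, a FOXO pattern, which were in 6.85% and 3.65% of all windows. A match describes letters and not a bound site.

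Each library held between 7996123 and 10257347 counts. Cebpa itself separated the genotypes without overlap in all 3 experiments, at 2.67%, 12.1% and 19.2% of control in the order above. Hepatocyte markers were present in every group, and 5 muscle markers summed to at most 0.6 TPM, the authors' transcript level per length and library. Of 7 macrophage markers, 5, 7 and 7 were tested in HFCFD2W, HFCFD8W+T10D and HFCFD12W+T10W. By edgeR at an adjusted p under 0.05, 3, 6 and 6 were higher in the knockouts, where 16.7%, 17.1% and 51.1% of all genes passed. All 7 stellate cell and fibroblast markers were tested, and 0, 2 and 7 were higher. In HFCFD2W, 1 of them had an unadjusted p under 0.05, where 31.2% of all genes did. In HFCFD12W+T10W the summed TPM of the macrophage markers was 146 to 373 in control and 687 to 844 in knockout livers and that of the stellate cell and fibroblast markers 18.99 to 41.5 and 255 to 315, while the macrophage sums of HFCFD8W+T10D overlapped (234 to 431 and 296 to 1096). Of 7 cholangiocyte markers, Spp1, the secreted osteopontin that other cells can also make, held most of the summed TPM and had log2 fold changes of 3.60 ± 0.24, 2.59 ± 0.26 and 4.16 ± 0.14. The other 6 summed to 1.65 to 2.94 TPM in control and 1.5 to 4.47 in knockout livers of HFCFD2W, 2.55 to 9.98 and 5.9 to 8.9 in HFCFD8W+T10D, and 2.46 to 3.9 and 32.7 to 56.1 in HFCFD12W+T10W. This sum separated the genotypes only in HFCFD12W+T10W. Epcam, 1 of the 6, did so by itself in all 3 experiments. It was at 0.09 to 0.56 and 0.59 to 1.63 TPM, 0.23 to 0.6 and 1.32 to 3.7, and 0.35 to 0.98 and 13.9 to 26.8. Of the 7 cholangiocyte markers, 2, 5 and 6 were tested and 1, 3 and 6 were higher by edgeR, beside 16.7%, 17.1% and 51.1% of all genes passing. The summed TPM of 8 hepatocyte markers was lower in the knockouts without overlap in HFCFD8W+T10D (67153 to 88952 in control and 42511 to 63323 in knockout livers) and in HFCFD12W+T10W (64919 to 78439 and 48083 to 53374), and overlapped in HFCFD2W (60857 to 74814 and 70243 to 93528). Alb held most of this sum. Mean TPM of Ttr went the other way, from 5565 to 9058 in HFCFD8W+T10D and from 5696 to 8071 in HFCFD12W+T10W. That of Apoa1 rose in HFCFD12W+T10W, from 4545 to 5773. By edgeR 4 and 6 of the 8 were lower in HFCFD8W+T10D and HFCFD12W+T10W and 0 higher, beside 17.1% and 51.1% of all genes passing. In whole liver, fewer cells of a type and less RNA per cell cannot be told apart, and the part of cell content in the values below was not tested.

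By level per length, the 9 genes stood in tiers. Ugp2 and Pygl were the highest, with group means of 163 to 283 and 175 to 251 TPM, and Gys2 came next in every group with 85.8 to 149 TPM. Gbe1, Ppp1r3b and Ppp1r3c followed with 51.4 to 76.9, 43.5 to 95.7 and 13.7 to 55.02 TPM. Gyg, Phka2 and Ppp1r3g were low, at 3.34 to 10.7, 4.87 to 9.81 and 0.21 to 9.03 TPM. The liver forms made up nearly all TPM of the catalytic enzymes. Gys2 gave 98.8% to 99.6% of glycogen synthase TPM over the group means, the rest being Gys1, the muscle form. Pygl gave 99.4% ± 0.0787 (SD, n = 5) of phosphorylase TPM in the HFCFD2W controls and 93.8% ± 0.871 in the HFCFD12W+T10W knockouts, where Pygb, the brain form, gave 5.16% ± 0.884. Phka2 gave 82.5% to 88.6% of the TPM of the phosphorylase kinase α subunits.

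With genotype, Ppp1r3c and Gyg changed in opposite directions in different experiments, and the core enzymes Gys2, Gbe1, Ugp2 and Pygl were all lower in HFCFD12W+T10W. In HFCFD2W, Ppp1r3c and Ppp1r3g rose and Ugp2 and Gyg fell, so that 4 of 9 members passed edgeR's quasi-likelihood test at an adjusted p under 0.05, where 16.7% of all genes did. In HFCFD8W+T10D, Ppp1r3b fell and Gyg rose, 2 of the 8 members tested, where 17.1% of all genes passed. In HFCFD12W+T10W, Gys2, Gbe1, Ugp2, Pygl, Ppp1r3b and Ppp1r3c fell and Gyg rose, 7 of 9, where 51.1% of all genes passed. The median log2 fold change of the tested members was -0.18, -0.17 and -0.63 in the 3 experiments, beside 0.0073, 0.011 and 0.013 for all genes tested. With a fold change over 2 required as well, 2, 1 and 3 members passed, where 3.07%, 6.1% and 17.7% of all genes did. In counts scaled by library size and the factors given next, the genotypes did not overlap for 3, 1 and 6 members, where 12.5%, 11.5% and 39.1% of all genes did not. The scaling factors (TMM, the trimmed mean of M values) were 1.29 to 1.38 in the HFCFD12W+T10W knockouts and 0.961 to 1.03 in their controls. Without them the median gene stood at 0.38 on the log2 scale in HFCFD12W+T10W, 0.19 in HFCFD8W+T10D and 0.029 in HFCFD2W. In HFCFD12W+T10W, Phka2 then passed and Pygl did not.

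**Figure D1:**
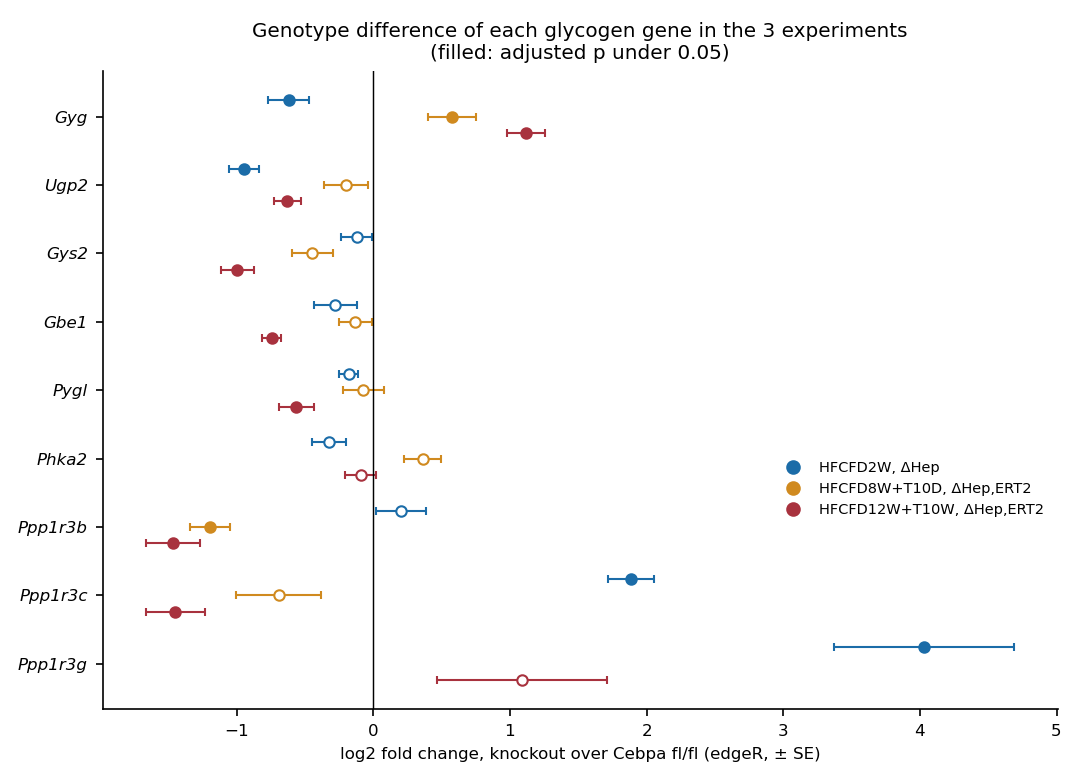
Log2 fold change of each member, knockout over Cebpa fl/fl, with its standard error, in the 3 experiments (5 against 5 mice each). Filled points passed an adjusted p of 0.05, and Ppp1r3g was under the count filter in HFCFD8W+T10D. Ppp1r3c is at 1.88 in HFCFD2W and -1.45 in HFCFD12W+T10W, while Gyg goes from -0.62 to 1.12.

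Gyg encodes glycogenin, the primer of the particle, and passed in all 3 experiments. Levels per mouse are given as CPM, counts scaled to library size and TMM factor, here and below, in rising order. In HFCFD2W, Gyg was at 6.39, 6.68, 7.27, 8.003 and 9.56 CPM in control mice and at 4.298, 4.38, 5.001, 5.21 and 5.88 CPM in knockout mice. Every knockout liver was below every control liver, with a log2 fold change of -0.62 ± 0.15 (SE, adjusted p = 0.0145). In HFCFD8W+T10D, the controls were at 4.23, 4.87, 5.59, 5.69 and 6.61 CPM and the knockouts at 5.89, 7.47, 7.68, 8.72 and 10.1 CPM. One knockout liver lay within the control range, and the log2 fold change was 0.58 ± 0.18 (adjusted p = 0.0395). That call was lost on leaving out any one of 7 of the 10 mice, with an adjusted p of 0.0611 to 0.107. In HFCFD12W+T10W, control livers were at 3.44, 4.24, 4.75, 4.87 and 6.32 CPM and knockout livers at 9.79, 9.85, 10.03, 10.1 and 10.1 CPM. All knockouts lay close together and above all controls, with a log2 fold change of 1.12 ± 0.14 (adjusted p = 2.9e-05). The genotype effect on Gyg was higher than in HFCFD2W by 1.18 ± 0.22 (adjusted p = 0.000549) in HFCFD8W+T10D and by 1.70 ± 0.22 (adjusted p = 2.56e-06) in HFCFD12W+T10W. The TPM ratio of Gys2 to Gyg was 41.5 ± 14.6 in control and 9.07 ± 0.996 in knockout livers of HFCFD12W+T10W (SD, n = 5 each).

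Ugp2, the enzyme that makes UDP-glucose, fell in the first and the last experiment. In HFCFD2W the controls were at 664, 679, 713, 719 and 757 CPM and the knockouts at 289.7, 326, 357, 411 and 446 CPM. The groups lay apart, with a log2 fold change of -0.95 ± 0.11 (adjusted p = 0.000117). In HFCFD12W+T10W the controls were at 306, 383, 409, 416 and 449 CPM and the knockouts at 229.8, 235, 242, 255 and 267 CPM, again without overlap. By TPM the ranges of 170 to 230 in control and 168 to 188 in knockout livers overlapped. The log2 fold change was -0.63 ± 0.098 (adjusted p = 0.000176), and -0.26 (adjusted p = 0.0268) without TMM factors. In HFCFD8W+T10D the ranges of 277 to 399 and 229.7 to 399 CPM overlapped, and the log2 fold change was -0.20 ± 0.16 (adjusted p = 0.431). Set against HFCFD2W, the effect of genotype on Ugp2 in HFCFD8W+T10D was higher by 0.73 ± 0.18 (adjusted p = 0.00949). The HFCFD2W controls, with a mean of 707 CPM, stood above all other groups, whose means were 246 to 392 CPM.

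Gys2, the liver glycogen synthase, fell in HFCFD12W+T10W. Its level there was 212, 228, 239, 297 and 315 CPM in control and 107, 117, 127, 136 and 141 CPM in knockout mice. No knockout value reached the lowest control, and the knockout level was 50.1% of control, a log2 fold change of -0.997 ± 0.12 (adjusted p = 2.43e-05). In HFCFD8W+T10D the controls were at 139, 187, 199, 205 and 218 CPM and the knockouts at 106, 123, 139, 144 and 176 CPM. These ranges overlapped, and the log2 fold change of -0.45 ± 0.15 (adjusted p = 0.0567) missed the threshold. It passed with DESeq2 (adjusted p = 0.0321) and on leaving out either of 2 mice. In HFCFD2W the ranges of 220.3 to 299 and 174 to 259.6 CPM overlapped, with a log2 fold change of -0.12 ± 0.11 (adjusted p = 0.506). The genotype effect in HFCFD12W+T10W was lower than in HFCFD2W by 0.92 ± 0.19 (adjusted p = 0.00075).

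Gbe1, the branching enzyme, stood at a like level in the 3 control groups after TMM scaling, with means of 168 ± 25.7, 167 ± 23.4 and 163 ± 9.08 CPM (SD, n = 5 each). In the HFCFD12W+T10W knockouts it was at 87.1, 91.2, 91.2, 99.1 and 103 CPM, in this unit below the lowest of all other livers, 106 CPM in an HFCFD2W knockout. By TPM these knockouts, at 54.2 to 64.5, were not the lowest, since the HFCFD2W knockouts were at 40.5 to 70.2. Their own controls stood above them in TPM too, at 69.5 to 86.03. The log2 fold change in HFCFD12W+T10W was -0.74 ± 0.069 (adjusted p = 3.36e-06). It was -0.28 ± 0.16 (adjusted p = 0.246) in HFCFD2W and -0.13 ± 0.12 (adjusted p = 0.501) in HFCFD8W+T10D, where its sign turned without TMM factors (0.053). Gbe1 was the only member to pass for a difference of genotype effects between HFCFD12W+T10W and HFCFD8W+T10D, by -0.64 ± 0.18 (adjusted p = 0.0193), where 10.5% of genes passed. That call was lost without TMM factors (-0.43, adjusted p = 0.122) and on leaving out either of 2 mice of HFCFD8W+T10D (adjusted p of 0.0571 to 0.0578). The difference from HFCFD2W of -0.51 ± 0.18 (adjusted p = 0.0291) was lost without TMM factors (adjusted p = 0.62) and on leaving out any one of 8 mice (adjusted p of 0.0518 to 0.0737).

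Pygl, the liver glycogen phosphorylase, had control means of 716, 546 and 439 CPM and knockout means of 631, 515 and 288 CPM in the order of the experiments. Within HFCFD12W+T10W the controls were at 325, 392, 427, 506 and 546 CPM and the knockouts at 256, 275, 289, 293 and 326 CPM. Only the highest knockout and the lowest control liver overlapped, and the log2 fold change was -0.56 ± 0.13 (adjusted p = 0.00261). Without TMM factors it was -0.20 (adjusted p = 0.182). The log2 fold changes of -0.18 ± 0.072 (adjusted p = 0.103) in HFCFD2W and -0.072 ± 0.15 (adjusted p = 0.785) in HFCFD8W+T10D did not pass, and the latter was 0.092 without TMM factors. The TPM ratio of Gys2 to Pygl was 0.762 ± 0.172 in control and 0.555 ± 0.0488 in knockout livers of HFCFD12W+T10W (SD, n = 5 each), with overlapping ranges of 0.571 to 1.001 and 0.5104 to 0.625.

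Phka2 encodes the liver α subunit of phosphorylase kinase, which activates phosphorylase, and passed in no experiment. Its log2 fold changes were -0.32 ± 0.12 (adjusted p = 0.0943), 0.36 ± 0.13 (adjusted p = 0.0843) and -0.091 ± 0.11 (adjusted p = 0.532) in the order of the experiments. On leaving out 1 knockout mouse, Phka2 passed in HFCFD2W (-0.41, adjusted p = 0.0388) and in HFCFD8W+T10D (0.44, adjusted p = 0.0255). In HFCFD12W+T10W the log2 fold change was 0.28 (adjusted p = 0.0425) without TMM factors, so its sign depends on the scaling. Set against HFCFD2W, the effect of genotype on Phka2 in HFCFD8W+T10D was higher by 0.67 ± 0.18 (adjusted p = 0.0162). Among control livers it was at 26.9 to 30.5 CPM in HFCFD2W, 13.3 to 17.6 in HFCFD8W+T10D and 20.5 to 28.99 in HFCFD12W+T10W, so that the HFCFD8W+T10D controls lay below both others.

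**Figure D2:**
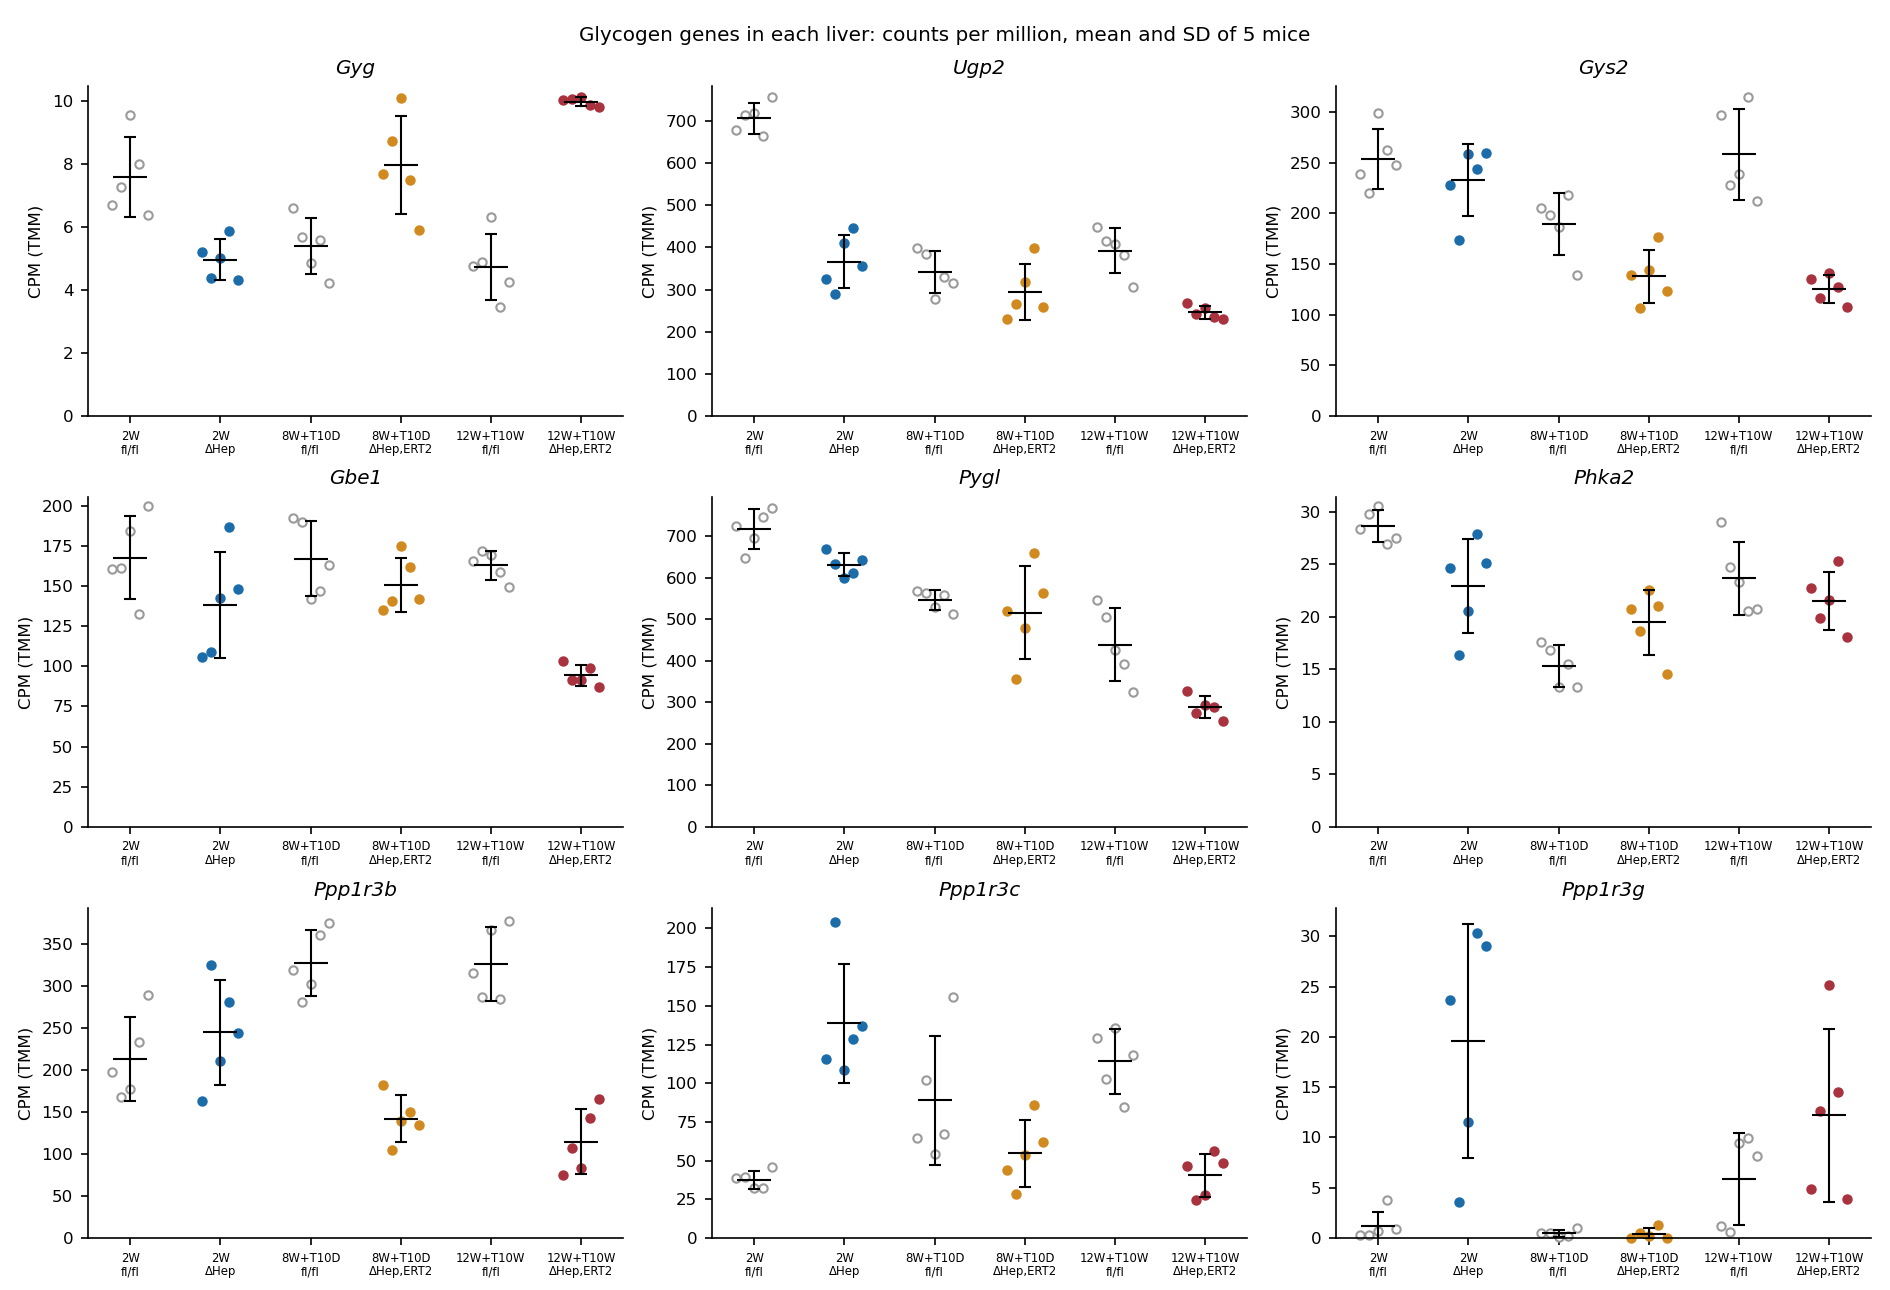
CPM of the 9 members in each of the 30 livers, 1 panel per gene, with controls as open and knockouts as filled points and the mean and SD of 5 mice beside them. Gyg in the HFCFD12W+T10W knockouts sits between 9.79 and 10.1 CPM, and Ppp1r3b in both inducible knockout groups is below all controls of its experiment.

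Ppp1r3b encodes the main hepatic targeting subunit, which anchors protein phosphatase 1 to glycogen, and it fell in both experiments with inducible deletion. In HFCFD8W+T10D the controls were at 281, 302, 318, 361 and 374 CPM and the knockouts at 104, 134, 139, 150.2 and 182 CPM. The groups did not overlap, and the knockout level was 43.7% of control, a log2 fold change of -1.19 ± 0.15 (adjusted p = 0.000196). The HFCFD12W+T10W controls were at 284, 287, 315, 367 and 377 CPM and the knockouts at 74.8, 83.02, 107, 143 and 165 CPM. Again the groups lay apart, at 36.2% of control, a log2 fold change of -1.47 ± 0.20 (adjusted p = 5.53e-05). In HFCFD2W the controls at 168, 177, 197, 232 and 289 CPM overlapped the knockouts at 163, 210.0, 244, 281 and 324 CPM, with a log2 fold change of 0.20 ± 0.18 (adjusted p = 0.489). Against the HFCFD2W effect, that of HFCFD8W+T10D stood at -1.41 ± 0.27 (adjusted p = 0.00102) and that of HFCFD12W+T10W at -1.71 ± 0.27 (adjusted p = 4.11e-05). These differences share the HFCFD2W mice, as do those of the other members.

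Ppp1r3c, which encodes a widely expressed targeting subunit, rose in HFCFD2W and fell in HFCFD12W+T10W. In HFCFD2W it was at 31.9, 32.3, 38.9, 39.3 and 45.8 CPM in control and 108, 116, 128, 137 and 204 CPM in knockout livers. It rose 3.69-fold without overlap, a log2 fold change of 1.88 ± 0.17 (adjusted p = 1.66e-05). In HFCFD12W+T10W the controls were at 84.7, 102, 118, 129 and 136 CPM and the knockouts at 24.4, 27.5, 46.5, 48.6 and 56.01 CPM. It fell to 36.6% of control, a log2 fold change of -1.45 ± 0.22 (adjusted p = 0.000121). In HFCFD8W+T10D both groups were spread widely, over 53.99 to 156 and 28.2 to 85.99 CPM, and the log2 fold change of -0.69 ± 0.31 (adjusted p = 0.146) did not pass. Against the HFCFD2W effect, that of HFCFD8W+T10D stood at -2.59 ± 0.39 (adjusted p = 5.37e-05) and that of HFCFD12W+T10W at -3.37 ± 0.39 (adjusted p = 7.36e-07). The control level entered this contrast, since the mean of the HFCFD2W controls (37.7 CPM) was the lowest of the 6 groups, next to that of the HFCFD12W+T10W knockouts (40.6 CPM).

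Ppp1r3g, a targeting subunit known to be raised in fasted liver, was near the limit of detection in 3 of the 6 groups. Its raw counts were 2, 2, 6, 6 and 27 in the HFCFD2W controls and 32, 85, 200, 216 and 237 in the knockouts. In CPM, the controls ranged over 0.297 to 3.73 and the knockouts over 3.59 to 30.3, so that only the highest control and the lowest knockout overlapped. The log2 fold change was 4.03 ± 0.66 (adjusted p = 0.00127). After 10 weeks of tamoxifen the controls were at 0.566, 1.19, 8.18, 9.42 and 9.99 CPM and the knockouts at 3.88, 4.88, 12.7, 14.5 and 25.2 CPM. The ranges overlapped and the log2 fold change was 1.09 ± 0.62 (adjusted p = 0.165). The genotype effect was lower than in HFCFD2W by 2.98 ± 0.96 (adjusted p = 0.0191). In HFCFD8W+T10D the 5 controls gave 21 counts in all and the 5 knockouts 19, too few to be tested. In the 2 knockout livers with a count of 0, that count allows up to 0.281 and 0.285 CPM (3 counts, counting error only).

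**Figure D3:**
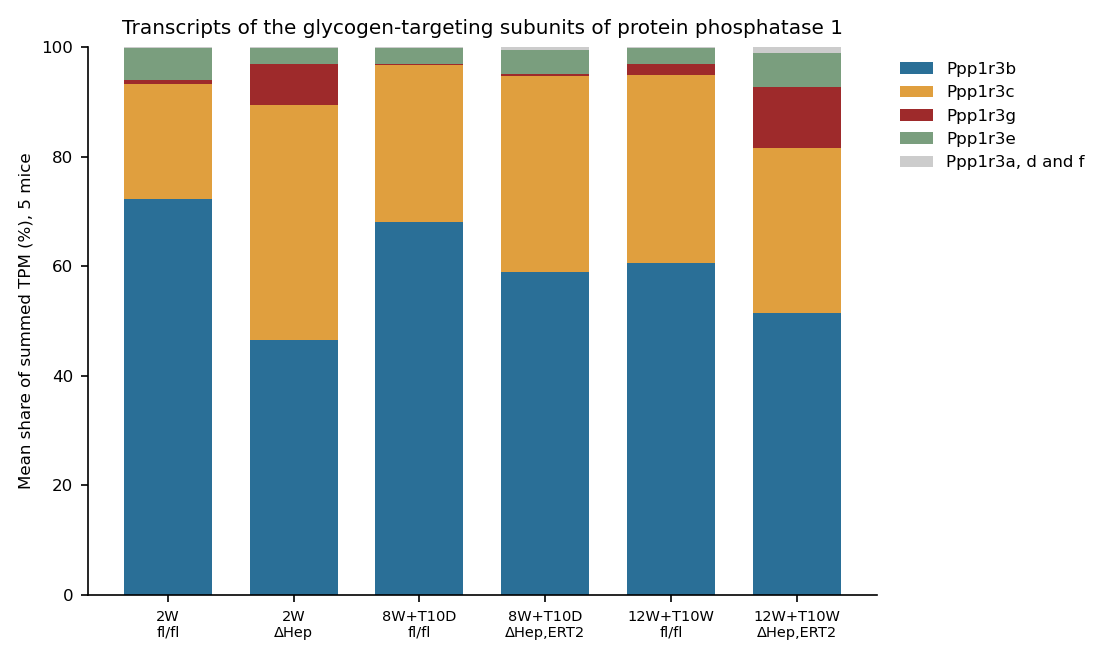
Mean share of each PPP1R3 targeting subunit in the summed TPM of the 7 measured family members, in percent, for the 6 groups of 5 mice. Ppp1r3b gives 72.2% in the HFCFD2W controls and 46.5% in the knockouts, where Ppp1r3c gives 42.99% and Ppp1r3g 7.48%.

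The make-up of the targeting subunits shifted with these changes. In the HFCFD2W controls Ppp1r3b gave 72.2% ± 4.35 (SD, n = 5) and Ppp1r3c 21.1% ± 3.1 of the family's TPM, and in the knockouts 46.5% ± 4.08 and 42.99% ± 4.64. The TPM ratio of Ppp1r3b to Ppp1r3c was 2.62 to 4.45 in these controls and 0.865 to 1.35 in these knockouts, without overlap. In HFCFD12W+T10W, where both genes fell, the ratio was 1.498 to 2.07 in control and 0.988 to 2.72 in knockout livers, and the ranges overlapped. Ppp1r3g gave 7.48% ± 4.31 in the HFCFD2W knockouts, 11.2% ± 8.85 in the HFCFD12W+T10W knockouts and 0.166% to 2.03% in the other 4 groups (group means). Ppp1r3e gave 2.83% to 6.25% over the group means.

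Genes that respond to feeding or the clock moved in some of the same comparisons. In HFCFD2W, 7 of 11 such genes passed, 4 higher and 3 lower in the knockouts, where 16.7% of all genes passed. Igfbp1 and Pck1, both raised by fasting, were higher by 3.39 ± 0.48 (adjusted p = 0.000488) and 1.35 ± 0.19 (adjusted p = 0.00039) on the log2 scale. Srebf1, raised by insulin, had -1.18 ± 0.14, and the clock genes Nr1d1 and Dbp had -1.35 ± 0.21 and -0.96 ± 0.23, all passing. In HFCFD8W+T10D 0 of 12 passed by edgeR, and 0 had an unadjusted p under 0.05, beside 17.1% and 31.1% of all genes. In HFCFD12W+T10W 8 of 13 passed, beside 51.1% of all genes, all of them lower, among them Pck1 with -0.55 ± 0.13 (adjusted p = 0.00342), while Igfbp1 had 0.47 ± 0.57 (adjusted p = 0.515). Pearson's r with Dbp was taken on log2 CPM, as deviations from group means over 30 mice. It was -0.706 for Ppp1r3b, -0.517 for Ppp1r3c and -0.134 for Ppp1r3g, and 0.0265 to 0.362 for the other members. Dbp was not the only gene so compared. Ppp1r3c had an r of 0.53 with Hnf4a, Ppp1r3g 0.64 with Pck1 and 0.58 with Tat, and Ugp2 0.63 with Alb. The part of feeding state or hour of harvest in the Ppp1r3b, Ppp1r3c and Ppp1r3g values was not tested.

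For each member, the 3 genes most like it were taken by Pearson's r of log2 CPM, as deviations from group means over 30 mice, the highest among 12964 genes. Among the enzymes of synthesis, Gbe1 was closest to Tkt (r = 0.893), Papss2 (0.847) and Mme (0.8403), and Ugp2 to Ces2g (r = 0.916), Hectd2os (0.846) and Ces2e (0.844). Gys2 was closest to Cyp2d9 (r = 0.797), Acaa2 (0.793) and Ak4 (0.782). Among the 3 genes closest to Gyg were Zc3h7b (r = 0.685) and Sirt5 (0.677). Pygl was closest to Lap3 (r = 0.815), Tpmt (0.814) and Stard5 (0.813), and Phka2 to Azin1 (r = 0.772), Slc25a10 (0.763) and Slc2a9 (0.759). Of the targeting subunits, Ppp1r3b was closest to Tubb2a (r = 0.784), Mrap (0.734) and Slc45a3 (0.685), and Ppp1r3c to Pex7 (r = 0.729), Plpbp (0.723) and Pgrmc1 (0.703). Ppp1r3g was closest to Slc25a33 (r = 0.777), Igfbp1 (0.761) and Paics (0.738). For Ppp1r3g and Igfbp1, Spearman's rho was 0.697, and r was 0.713 without the 2 mice farthest from the median of Igfbp1. Between members, the highest r was that of Gbe1 and Ugp2 (0.747). All these values share libraries and depth, and no p is given because the pairs were picked for their height.

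**Figure D4:**
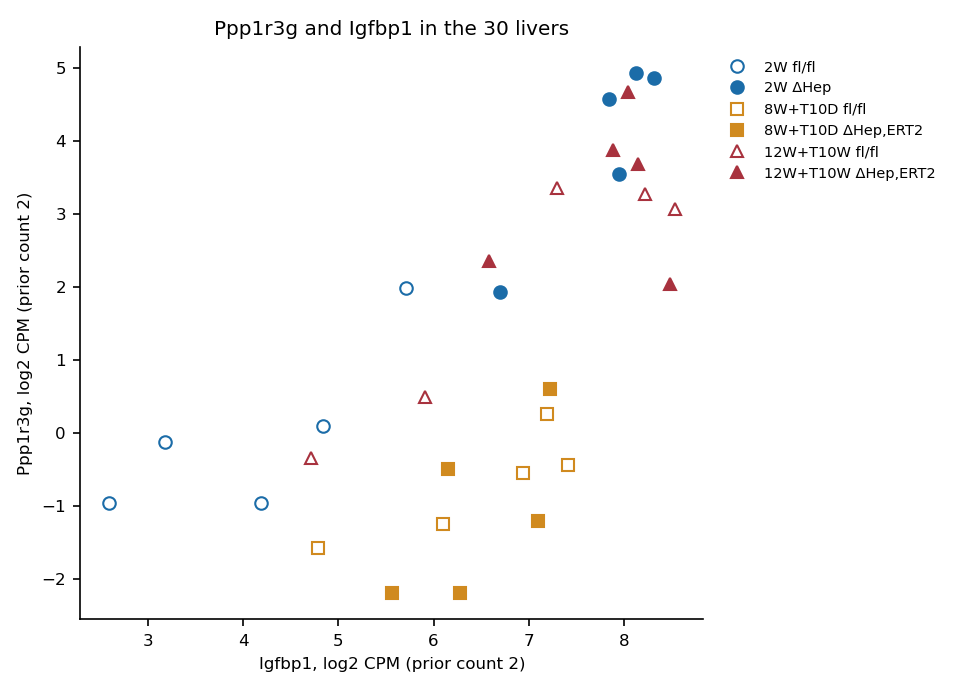
Ppp1r3g against Igfbp1 in each of the 30 livers, both as log2 CPM with a prior count of 2, with filled points for knockouts and 1 marker shape per experiment. The HFCFD8W+T10D livers of both genotypes lie low for Ppp1r3g, where totals were 21 and 19 counts.

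The genotype effects themselves were compared between experiments in 1 fit of all libraries. Against HFCFD2W, 5 of 9 members passed for HFCFD8W+T10D, where 11.2% of genes did, and 6 of 9 for HFCFD12W+T10W, where 30.7% of genes did. With a fold over 2 as well, 3 and 4 passed, where 4.1% and 12.3% of genes did. Between HFCFD12W+T10W and HFCFD8W+T10D, Gbe1 passed and 0 members did so with a fold over 2, where 4.47% of genes did, and 7 had an unadjusted p under 0.05, where 24.9% of genes did.

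Control livers also differed between experiments. From HFCFD2W to HFCFD8W+T10D, 7 of 9 members passed, where 43.6% of genes did. Ugp2 (-1.05 ± 0.13), Phka2 (-0.90 ± 0.13), Gyg (-0.50 ± 0.15), Gys2 (-0.42 ± 0.14) and Pygl (-0.39 ± 0.12) were lower on the log2 scale, and Ppp1r3c (1.24 ± 0.28) and Ppp1r3b (0.62 ± 0.19) higher. Gyg, Gys2 and Pygl lost their call without TMM factors, which put the median gene at 0.21. From HFCFD2W to HFCFD12W+T10W, 6 of 9 passed, where 39.1% of genes did. Ugp2 (-0.85 ± 0.13), Pygl (-0.71 ± 0.12) and Gyg (-0.69 ± 0.16) were lower, and Ppp1r3c (1.60 ± 0.28), Ppp1r3b (0.62 ± 0.19) and Ppp1r3g (2.31 ± 0.79, adjusted p = 0.021) higher. The Ppp1r3g call was lost on leaving out any one of 4 mice, with an adjusted p of 0.052 to 0.0541. From HFCFD8W+T10D to HFCFD12W+T10W, Ppp1r3g (3.63 ± 0.89), Phka2 (0.63 ± 0.13) and Gys2 (0.45 ± 0.14, adjusted p = 0.032) were higher, 3 of 9, where 11.4% of genes passed. Ppp1r3g had 21 counts in all in the HFCFD8W+T10D controls, beside 265 in those of HFCFD12W+T10W. In HFCFD8W+T10D fitted alone it was under the count filter, so this call and its size rest on few counts. The Gys2 call was lost on leaving out any one of 4 mice (adjusted p of 0.0671 to 0.103). With a fold over 2 as well, 2, 2 and 1 members passed in these 3 comparisons, where 13.7%, 10.1% and 3.06% of genes did. Ppp1r3g was among the 2 of the second comparison and was the 1 of the third. The clock gene Dbp was at 78.8 to 114 CPM in the HFCFD2W controls, 2.36 to 6.197 in those of HFCFD8W+T10D and 23.4 to 58.2 in those of HFCFD12W+T10W. Arntl, which peaks opposite to Dbp, was at 0.138 to 0.891, 13.2 to 20.7 and 0.3399 to 2.83 CPM. Against HFCFD2W, 6 of 7 macrophage markers were higher in the HFCFD8W+T10D controls (median log2 difference 2.08) and 6 in those of HFCFD12W+T10W (1.40). Of 7 stellate cell and fibroblast markers, 5 were higher in the HFCFD8W+T10D controls, while 1 was higher and 1 lower in those of HFCFD12W+T10W. From HFCFD8W+T10D to HFCFD12W+T10W, 3 macrophage and 3 stellate cell and fibroblast markers were lower. The part of cell content and of the hour of harvest in the control differences was not tested.

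Beyond the 9 members, 31 further genes of glycogen and glucose 6-phosphate turnover were read from one list. In HFCFD2W 6 of 26 tested passed, 3 higher and 3 lower, beside 16.7% of all genes. In HFCFD8W+T10D 5 of 27 passed, 4 higher and 1 lower, and in HFCFD12W+T10W 16 of 27, 6 higher and 10 lower, beside 17.1% and 51.1% of all genes. These shares of the list were near those of all genes. The median log2 fold changes were -0.11, -0.016 and -0.001. Pygb, the brain phosphorylase, rose by 0.47 ± 0.15 (adjusted p = 0.049), 0.96 ± 0.22 (adjusted p = 0.0117) and 2.20 ± 0.15 (adjusted p = 3.44e-07) in the order of the experiments. In HFCFD12W+T10W it was at 3.21 to 6.56 CPM in control and 17.9 to 23.3 CPM in knockout livers, the livers with the higher cholangiocyte, macrophage and stellate cell markers. Pgm2, of the phosphoglucomutase family, rose by 0.63 ± 0.20, 0.62 ± 0.17 and 0.50 ± 0.14, passing each time. Pgm1, which interconverts glucose 1-phosphate and glucose 6-phosphate, had -0.77 ± 0.082 (adjusted p = 9.35e-06) in HFCFD12W+T10W. G6pc, the catalytic subunit of glucose 6-phosphatase, had -1.11 ± 0.21 (adjusted p = 0.00369) in HFCFD8W+T10D and -1.24 ± 0.17 (adjusted p = 7.71e-05) in HFCFD12W+T10W. Its transporter Slc37a4 had -1.01 ± 0.074 (adjusted p = 5.05e-07) in HFCFD12W+T10W. In the same livers 6 of 8 hepatocyte markers were lower, among them Alb (-1.10 ± 0.12), Hnf4a (-0.96 ± 0.084) and Cps1 (-1.39 ± 0.14).

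**Figure D5:**
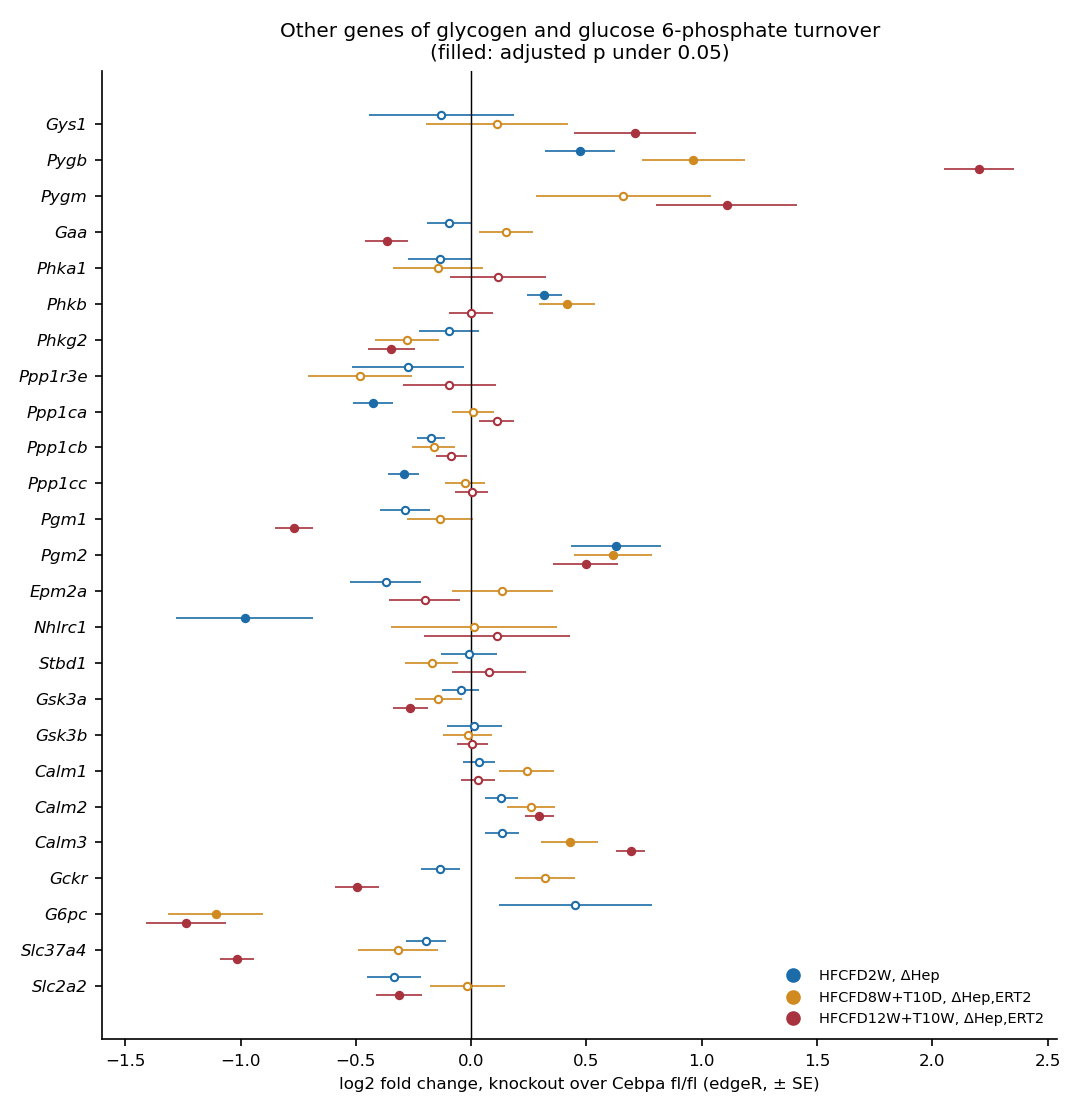
Log2 fold change, knockout over Cebpa fl/fl, with its standard error, for 25 of the 27 listed genes that could be tested. Filled points passed an adjusted p of 0.05. Pygb goes from 0.47 in HFCFD2W to 2.20 in HFCFD12W+T10W, where G6pc is at -1.24.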

How the data were processed

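Liver poly(A) RNA of 30 mice was sequenced as stranded libraries. Per the submitters' processing notes, which name Trimmomatic 0.36, STAR 2.5.1, Picard 1.84, RSEM 1.2.22 and mm10, the authors deposited expected counts per gene. The TPM values used to compare genes were also deposited by the authors. Expected counts were rounded to whole numbers. Per experiment, genes were filtered with filterByExpr, scaled by TMM and tested between genotypes with edgeR 4.0.16 (quasi-likelihood F test, R 4.3.3), with Benjamini-Hochberg adjustment over all genes. Differences of genotype effects and of control livers came from 1 fit of all 30 libraries, as did CPM. The fits were tested on simulated data. Alternatives were DESeq2 1.42.0, upper quartile scaling, no filter, 1 joint fit, a replicate block, stricter thresholds, leaving out each mouse and, chosen after seeing the data, no TMM factors.

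Depth was 7996123 to 10257347 counts per library. The members, lists and naming rule (all members, Cebpa, listed genes and the 3 genes most like each member) were chosen with earlier results of these data known. The authors' normalized tables other than TPM were not used. The values of 4 single genes are not reported here.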

Additional observations from a re-analysis of the deposited data

Results flagged for a closer look

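The genotype effect differed between experiments, by edgeR's test of the difference itself, in 12 member and comparison pairs, given here as log2 differences. Between HFCFD8W+T10D and HFCFD2W these were Ugp2 (0.73, adjusted p = 0.00949), Gyg (1.18, adjusted p = 0.000549), Phka2 (0.67, adjusted p = 0.0162), Ppp1r3b (-1.41, adjusted p = 0.00102) and Ppp1r3c (-2.59, adjusted p = 5.37e-05), 5 of 9 members, where 11.2% of genes passed. Between HFCFD12W+T10W and HFCFD2W they were Gyg (1.70, adjusted p = 2.56e-06), Gbe1 (-0.51, adjusted p = 0.0291), Gys2 (-0.92, adjusted p = 0.00075), Ppp1r3b (-1.71, adjusted p = 4.11e-05), Ppp1r3g (-2.98, adjusted p = 0.0191) and Ppp1r3c (-3.37, adjusted p = 7.36e-07), 6 of 9, where 30.7% of genes passed. Between HFCFD12W+T10W and HFCFD8W+T10D it was Gbe1 (-0.64, adjusted p = 0.0193). The comparisons with HFCFD2W share its mice, and Cre line, diet time, tamoxifen and any difference in batch or hour of harvest cannot be told apart there. None of 54 member and group pairs held a mouse far from the other 4 by Dixon's test.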

How the results depend on the processing

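Requiring a fold change over 2 left 2, 1 and 3 members between genotypes in HFCFD2W, HFCFD8W+T10D and HFCFD12W+T10W, 3 and 0 for the differences of HFCFD8W+T10D from HFCFD2W and of HFCFD12W+T10W from HFCFD8W+T10D, and 2, 1 and 2 for control livers (HFCFD8W+T10D against HFCFD2W, HFCFD12W+T10W against HFCFD8W+T10D, HFCFD12W+T10W against HFCFD2W). An adjusted p under 0.01 left 1 between genotypes in HFCFD8W+T10D, 0 for the difference of HFCFD12W+T10W from HFCFD8W+T10D and 4 for controls of HFCFD8W+T10D against HFCFD2W. In HFCFD8W+T10D, 1 fit of all 30 libraries called 5 and no filter 1. DESeq2 called 3 for HFCFD12W+T10W against HFCFD8W+T10D. Without TMM factors 4 passed for controls of HFCFD8W+T10D against HFCFD2W. Leaving out each mouse gave 4 to 5, 1 to 3 and 7 to 7 members between genotypes in the 3 experiments, 5 to 6, 0 to 3 and 5 to 7 for the differences of effects (HFCFD8W+T10D from HFCFD2W, HFCFD12W+T10W from HFCFD8W+T10D, HFCFD12W+T10W from HFCFD2W), and 5 to 7, 2 to 3 and 5 to 6 for the control livers in the same order. The cause of these shifts was not tested.

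Signs that turned belonged to values that were small in the tests reported above. Without TMM factors these were Phka2 in HFCFD12W+T10W (0.28, which then passed), Pygl and Gbe1 in HFCFD8W+T10D (0.092 and 0.053), and, between control livers, Gbe1 (0.18, 0.016 and 0.19) and Ppp1r3b (0.028). Gbe1 in controls of HFCFD8W+T10D against HFCFD2W was 0.018 with DESeq2, 0.010 without a filter and 0.059 with upper quartile scaling. Leaving out a mouse turned, in controls, Gys2 (-0.035 to 0.11) and Gbe1 (-0.12 to 0.029) for HFCFD12W+T10W against HFCFD2W, Gbe1 (-0.088 to 0.021) and Ppp1r3b (-0.066 to 0.045) for HFCFD12W+T10W against HFCFD8W+T10D, and Gbe1 (-0.082 to 0.065) for HFCFD8W+T10D against HFCFD2W, and also Pygl in HFCFD8W+T10D (-0.18 to 0.032) and in its difference from HFCFD2W (-0.0086 to 0.21). For differences of genotype effects, upper quartile scaling moved the share of higher calls among all genes from 43.6% to 61.6% for HFCFD12W+T10W against HFCFD2W and from 47.5% to 66.5% for HFCFD12W+T10W against HFCFD8W+T10D and from 39.6% to 52.6% for HFCFD8W+T10D against HFCFD2W, and for control livers of HFCFD12W+T10W against HFCFD8W+T10D from 55.2% to 45.0%. Without TMM factors it was 57.7%, 84.1% and 88.0% in place of 51.5%, 60.0% and 53.5% between genotypes in HFCFD2W, HFCFD8W+T10D and HFCFD12W+T10W, 87.0%, 83.4% and 77.0% for the differences of effects in the order above, and 83.2%, 67.9% and 76.2% in place of 50.5%, 55.2% and 50.8% for control livers in that order.

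The labels do not say whether same-numbered mice were paired. Over the 2000 genes that varied most within groups, their deviations correlated from -0.239 to 0.082 in HFCFD2W. The range was -0.092 to 0.142 in HFCFD8W+T10D and -0.077 to 0.173 in HFCFD12W+T10W. Such values cannot decide whether these mice shared a litter, cage or processing. Under a fit that took the mouse number as a replicate block, 3, 3 and 7 members passed, and over all genes 725 in place of 1847 passed in HFCFD2W. Gyg in HFCFD2W was -0.61 (adjusted p = 0.117) and Gys2 in HFCFD8W+T10D -0.45 (adjusted p = 0.0374) under the block. In HFCFD2W this fit held the 8 mice whose numbers occur in both genotypes. No block was fitted across experiments.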

Other observations

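Control livers also differed between experiments in the wider list of glycogen and glucose 6-phosphate genes. From HFCFD2W to HFCFD8W+T10D, 11 of 27 passed, 1 higher and 10 lower, where 43.6% of all genes passed. G6pc, of glucose 6-phosphatase, had -1.34 ± 0.28 (adjusted p = 0.00035), the glucose transporter Slc2a2 -1.14 ± 0.14 (adjusted p = 2.37e-07) and Epm2a, the glycogen phosphatase laforin, -0.93 ± 0.18 (adjusted p = 0.000167). From HFCFD8W+T10D to HFCFD12W+T10W, 4 of 27 passed, 3 higher and 1 lower, where 11.4% of all genes passed, with G6pc at 0.93 ± 0.28 (adjusted p = 0.0285). Diet time, tamoxifen and any difference in batch or hour of harvest cannot be told apart here.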
